A study of Mus musculus with 15 samples.

Results

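The Toll-like receptors of the cell surface and their cofactors were followed in murine dendritic cells (DCs) and monocytes. The group is the 8 genes Tlr1, Tlr2, Tlr4, Tlr5, Tlr6, Cd14, Ly96 and Cd180. They were chosen by name and not by a rule on their measured values, though with earlier results of these data known. Each symbol matched 1 of the 38924 gene identifiers counted. RNA was measured in 15 libraries, 3 from each of 5 sorted subtypes: splenic CD8+ DCs and LN CD103+ DCs of the DC1 lineage, splenic CD4+ DCs and LN CD11b+ DCs of the DC2 lineage, and splenic Ly6C+ monocytes. All came from naïve, unmanipulated female mice of the C57BL/6 strain, aged 6 to 8 weeks in the labels and up to 10 weeks in the methods, and no subtype carried a transgene or received a treatment. Each library held cells pooled from 5 mice, so the pool is the replicate. The mice that gave the lymph nodes (LNs) were not those that gave the spleens, so organ and cohort cannot be told apart. The splenic DCs were taken as cells that stay in the organ, whereas the LN DCs, gated on high MHC class II, had migrated from tissue. DCs were enriched on CD11c beads and monocytes on CD11b beads before the sort, so bead and cell type cannot be told apart where monocytes are compared with DCs.

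Toll-like receptors bind conserved microbial products and signal through a cytoplasmic TIR domain that recruits the adaptor MyD88. TLR2 works as a heterodimer, with TLR1 for triacylated lipopeptides and with TLR6 for diacylated ones. TLR4 needs the small secreted protein MD-2, the product of Ly96, to bind lipopolysaccharide, which CD14 hands to the pair, and CD14 also serves TLR2. TLR5 binds bacterial flagellin. CD180 resembles the extracellular part of TLR4, lacks the TIR domain and is held at the surface by MD-1, the product of Ly86. Monocytes are known as cells with abundant CD14, and DCs as cells whose receptor sets differ between lineages.

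The genes are spread over 6 chromosomes in mm10. Tlr1 (ENSMUSG00000044827, chromosome 5 from 64924811 to 64932761, minus strand, 2652 exonic bases) and Tlr6 (ENSMUSG00000051498, chromosome 5 from 64953106 to 64960048, minus strand, 2603 exonic bases) are neighbours, 20345 bases apart. Tlr2 (ENSMUSG00000027995) lies on chromosome 3 from 83836273 to 83841767, minus strand, with 3013 exonic bases. Tlr4 (ENSMUSG00000039005) lies on chromosome 4 from 66827584 to 66930284, plus strand, with 5556 exonic bases. Tlr5 (ENSMUSG00000079164) lies on chromosome 1 from 182954788 to 182976044, plus strand, with 3199 exonic bases, and Ly96 (ENSMUSG00000025779) on chromosome 1 from 16688456 to 16709605, plus strand, with 603. Cd14 lies on the sixth and is placed where its values are given. Cd180 (ENSMUSG00000021624) lies on chromosome 13 from 102693558 to 102739629, plus strand, with 4509 exonic bases, 4.04% of which it shares with Mast4 on the other strand, and reads there cannot be told apart because the counting ignored strand. Tlr1 and Tlr6 share stretches of sequence: of the 50-base windows of the longest coding transcript, 15.3% of those of Tlr1 (454 windows) occur in Tlr6, and 12.5% of those of Tlr6 occur in Tlr1. For 100-base windows the shares were 8.85% and 7.24%. A read that lies wholly in such a stretch has no unique place in the genome and was not counted, so the levels of both genes rest on the rest of their length.

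The sequences before the start sites of Tlr1, Tlr6 and Tlr2 are shown because these genes encode the partners of the TLR2 heterodimers and, as given below, the neighbours Tlr1 and Tlr6 differed in pattern while Tlr6 and Tlr2, on different chromosomes, had the smallest difference in pattern of any 2 of the 8 genes. They are RefSeq sequence (GRCm38.p6) on the minus strand, written 5′ to 3′ and ending at the base before the outermost RefSeq start, except that Tlr2 is shown only as far as the start of the counted gene. RefSeq promoters of 250 bases were at hand for 5 of the 8 genes (Tlr1, Tlr2, Tlr5, Tlr6 and Cd180).
Tlr1, chr5:64933559-64933808: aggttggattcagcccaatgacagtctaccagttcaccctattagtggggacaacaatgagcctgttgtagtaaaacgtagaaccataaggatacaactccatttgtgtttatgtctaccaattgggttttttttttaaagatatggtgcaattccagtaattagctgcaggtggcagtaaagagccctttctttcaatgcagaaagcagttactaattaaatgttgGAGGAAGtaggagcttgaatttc
Tlr6, chr5:64960049-64960298: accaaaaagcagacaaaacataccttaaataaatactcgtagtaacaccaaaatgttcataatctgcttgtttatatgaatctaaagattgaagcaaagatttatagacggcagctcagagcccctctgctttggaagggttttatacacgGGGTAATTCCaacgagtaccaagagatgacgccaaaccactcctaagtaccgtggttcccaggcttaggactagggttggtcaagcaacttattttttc
Tlr2, chr3:83841768-83841858: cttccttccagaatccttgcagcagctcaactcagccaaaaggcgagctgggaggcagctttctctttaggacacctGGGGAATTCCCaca
Capitals mark matches, on either strand, to any of 5 motifs searched in the 250 bases: a PU.1 form (GAGGAAG), an NF-kB form (GGG, then any 5 bases, then CC), an IRF form (GAAA, then any 2 bases, then GAAA), an AP-1 form (TGANTCA) and a C/EBP form (TTNNGCAA). The Tlr1 window held the PU.1 form, found in 10.6% of all 32851 promoter windows of that length. The Tlr6 and Tlr2 windows held the NF-kB form, in Tlr2 as overlapping matches, and 45.8% of all windows hold it. Windows at a second, inner start site held no match for Tlr1, and the IRF form (2.98% of all windows) and the C/EBP form (9.56%) for Tlr6. The Tlr5 window held the NF-kB form and neither Cd180 window held any of the 5, and the AP-1 form (6.75% of all windows) was in none. These are matches of letters only.

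Libraries held 4531243 to 10233914 counts on genes. Of the sort markers, Cd8a was highest in splenic CD8+ DCs, Cd4 in splenic CD4+ DCs and Ly6c2 in monocytes. The migratory genes Ccr7 and Fscn1 were highest in LN DCs. Their summed levels were 4779 to 11476 CPM (counts scaled to library size by the TMM method) there against 5.64 to 348 CPM in the spleen. Itgae, Itgam and Itgax, the rest of the 6 sort markers, are not given singly. Itgae and Itgam encode the CD103 and CD11b that name the LN subtypes, so the sort of those subtypes is not checked by the markers named singly. The sum of the 6 was lowest in LN CD103+ DCs, at 138 to 188 CPM against 445 to 2254 CPM elsewhere. The 5 DC1 markers summed to 775 CPM or more in every DC1 library and at most 594 CPM elsewhere, and the 3 DC2 markers to 754 CPM or more in DC2 libraries and monocytes and at most 149 CPM in DC1. Of the 8 B cell markers, all 8 had a count in LN CD103+ DCs, and their sum was 263 CPM in replicate 1 against 18.6 to 23.7 CPM in replicates 2 and 3. That sum was 87.5 to 104 CPM in splenic CD4+ DCs and 48.5 to 95.3 CPM in LN CD11b+ DCs. It was 31.0 to 45.5 CPM in splenic CD8+ DCs and 24.3 to 29.3 CPM in monocytes. All 8 macrophage markers had a count in every subtype, and their sum was highest in splenic CD4+ DCs (1066 to 1350 CPM) and LN CD11b+ DCs (639 to 939 CPM) against 185 to 501 CPM elsewhere. The sum of the 4 monocyte markers, in CPM, was 4579 to 4984 in monocytes, 471 to 543 in LN CD11b+ DCs, 432 to 614 in splenic CD4+ DCs, 135 to 196 in splenic CD8+ DCs and 18.0 to 36.1 in LN CD103+ DCs. Neutrophil granule genes were counted in monocytes (8 of 8 markers, sum 214 to 329 CPM, against at most 5.75 CPM in any DC library), with Ly6g at 0 to 0.393 CPM. T cell and NK cell markers summed to at most 49.0 and 19.2 CPM in any library, both in the LN, and the 2 plasmacytoid DC markers to 66.6 to 88.1 CPM in splenic CD8+ DCs and at most 18.8 CPM elsewhere. The parts of these other cells in the levels below were not tested, and fewer cells with a transcript and less of it per cell cannot be told apart in sorted bulk samples.

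All 8 genes passed the filter on low counts (more than 1 CPM in at least 3 libraries), and no subtype was high in all of them. Monocytes had the highest mean of Tlr2, Tlr4, Tlr6 and Cd14. Splenic CD4+ DCs had the highest mean of Tlr1 and Tlr5, LN CD11b+ DCs had that of Ly96, and Cd180 separated the spleen, monocytes included, from the LN. Differences below are log2 fold changes from edgeR's quasi-likelihood test with their standard errors (SE), with p-values adjusted over the 14456 genes tested and a threshold of 0.05. A test on 3 against 3 libraries alone could not give an exact permutation p under 0.1, and these p-values rest on a spread estimated over all 15 libraries and shared between genes. The tests do not pair libraries by replicate number except where a block is named.

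**Figure D1:**
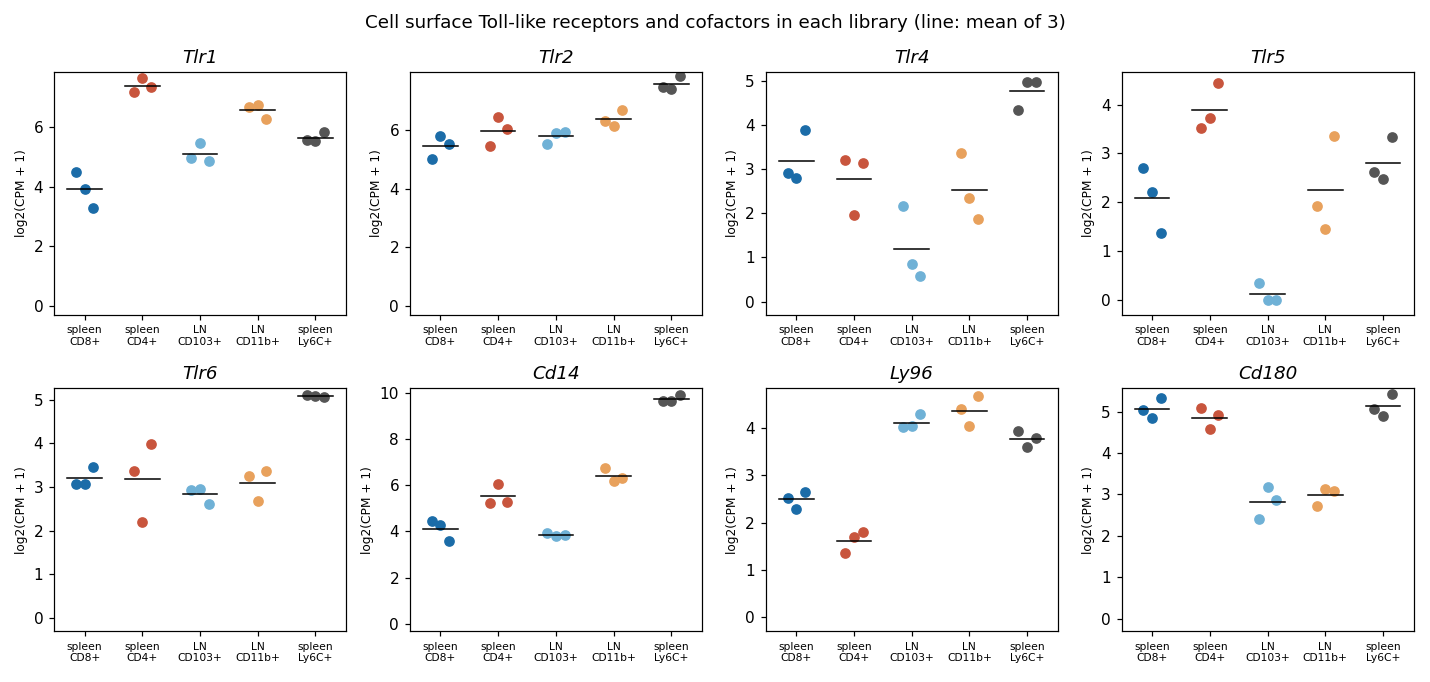
Level of each of the 8 genes in each of the 15 libraries, as log2(CPM + 1), with a dot for each library, a line at the mean of the 3 dots and a separate vertical scale in each panel. Cd14 stands at 794 to 938 CPM in monocytes and at most 105 CPM in any DC library, and Cd180 at 22.8 CPM or more in every spleen library and at most 8.08 CPM in every LN library.

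Tlr1 was higher in DC2 than in DC1 in both organs, with its highest level in the spleen. Its level was 145, 198 and 162 CPM in the 3 splenic CD4+ DC libraries, 101, 106 and 76.2 CPM in LN CD11b+ DCs, and 46.6, 45.0 and 55.8 CPM in monocytes. It was 29.9, 43.0 and 27.8 CPM in LN CD103+ DCs and 21.6, 14.2 and 8.82 CPM in splenic CD8+ DCs. The lowest DC2 library was thus above the highest DC1 library in both organs, and no 2 subtypes overlapped. Splenic CD8+ DCs were lower than splenic CD4+ DCs by a log2 fold change of -3.50 (SE 0.29, adjusted p = 6.13e-08), and LN CD103+ DCs lower than LN CD11b+ DCs by -1.49 (SE 0.27, adjusted p = 0.000745). The lineages thus lay closer together in the LN than in the spleen, which is tested as the interaction below. Of the 10 pairs of subtypes, 9 differed, the exception being monocytes and LN CD103+ DCs (0.55, SE 0.26, adjusted p = 0.0886). That pair passed the threshold without LN CD103+ DC replicate 2 (0.76, adjusted p = 0.0408) or without splenic CD8+ DC replicate 3 (0.55, adjusted p = 0.0476). The pair also passed with limma on log2(TPM + 1) (0.74, adjusted p = 0.0231) and with only the subtypes compared in the fit (0.53, adjusted p = 0.0253).

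Tlr2, the shared chain of the heterodimers, was highest in monocytes. Monocytes had 174, 169.7 and 229 CPM, LN CD11b+ DCs 78.7, 69.8 and 102 CPM, and splenic CD4+ DCs 42.7, 85.9 and 64.1 CPM. LN CD103+ DCs had 45.4, 58.2 and 59.8 CPM and splenic CD8+ DCs 31.2, 54.1 and 45.5 CPM, so that the 4 DC ranges ran into each other and every monocyte library lay above them. The log2 fold change of monocytes over the DC subtypes ran from 1.20 (SE 0.25, adjusted p = 0.000767, over LN CD11b+ DCs) to 2.13 (SE 0.26, adjusted p = 2.39e-06, over splenic CD8+ DCs). Among DCs, the pair farthest apart, LN CD11b+ over splenic CD8+ DCs, differed by 0.93 (SE 0.26, adjusted p = 0.00700), with lineage and organ both different. No other DC pair passed, except that LN CD103+ against LN CD11b+ DCs (-0.61, SE 0.26, adjusted p = 0.132) passed with the replicate number as a block (-0.63, adjusted p = 0.0471). Splenic CD8+ DCs against splenic CD4+ DCs gave -0.56 (SE 0.26, adjusted p = 0.115), which passed without splenic CD4+ DC replicate 1 (-0.79, adjusted p = 0.0278).

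Tlr6, the other partner of TLR2, had a single step between monocytes and DCs. Monocytes had 33.8, 32.9 and 32.2 CPM, and the 12 DC libraries had 3.58 to 14.98 CPM, both ends of that range in splenic CD4+ DCs (replicates 2 and 3). Means were 9.32 ± 5.70 CPM (SD, n = 3) in splenic CD4+ DCs, 8.26 ± 1.47 in splenic CD8+ DCs, 7.77 ± 2.06 in LN CD11b+ DCs and 6.21 ± 0.929 in LN CD103+ DCs, an order in which no neighbours differed beyond their spread. Monocytes exceeded each DC subtype by a log2 fold change of 1.82 or more (SE 0.36, adjusted p = 0.000470, over splenic CD4+ DCs), with the lowest adjusted p, 2.45e-05, over LN CD103+ DCs. None of the 6 DC pairs passed, and LN CD103+ against splenic CD4+ DCs (-0.58, SE 0.37, adjusted p = 0.215) passed without splenic CD4+ DC replicate 2 (-0.96, adjusted p = 0.0154).

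Tlr4, the lipopolysaccharide receptor, was low throughout and lowest in LN CD103+ DCs. Monocytes had 19.5, 30.8 and 30.5 CPM, splenic CD8+ DCs 6.57, 5.94 and 13.7 CPM, splenic CD4+ DCs 8.25, 2.90 and 7.82 CPM, and LN CD11b+ DCs 9.36, 4.11 and 2.65 CPM. LN CD103+ DCs had 3.49, 0.819 and 0.497 CPM, from 25, 7 and 3 counts. All monocyte libraries lay above all DC libraries, and the replicates of both LN subtypes spread widely, with replicate 1 highest in each. Monocytes exceeded the DC subtypes by 1.62 (SE 0.52, adjusted p = 0.0177, over splenic CD8+ DCs) to 4.05 (SE 0.61, adjusted p = 1.86e-05, over LN CD103+ DCs). The former missed the threshold without replicate 1 or 2 of the splenic CD8+ DCs (adjusted p = 0.0686 and 0.0766) or without replicate 2 or 3 of the monocytes (0.0583 and 0.0566). Against LN CD11b+ DCs it was 2.28 (SE 0.54, adjusted p = 0.00196), and 2.97 without LN CD11b+ DC replicate 1. LN CD103+ DCs were lower than splenic CD8+ DCs by -2.43 (SE 0.61, adjusted p = 0.00293). Without LN CD103+ DC replicate 1, the library with the highest B cell marker sum, this was -3.66 (adjusted p = 0.000340) and the difference from monocytes 5.28. Against LN CD11b+ DCs the difference was -1.78 (SE 0.62, adjusted p = 0.0670), and it passed with the replicate number as a block (-1.79, adjusted p = 0.0439). The difference also passed with DESeq2 (-1.75, adjusted p = 0.0307) and with no filter on low counts (-1.78, adjusted p = 0.000770). It was -3.00 without LN CD103+ DC replicate 1 (adjusted p = 0.00823), -2.07 without LN CD11b+ DC replicate 3 (adjusted p = 0.0452), -1.78 without splenic CD4+ DC replicate 2 (adjusted p = 0.0491) and -1.09 without LN CD11b+ DC replicate 1 (adjusted p = 0.352).

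Ly96, whose product MD-2 completes the TLR4 receptor, had its highest means in the LN DCs and its lowest in the splenic DCs. LN CD11b+ DCs had 20.1, 15.5 and 24.8 CPM, LN CD103+ DCs 15.2, 15.6 and 18.7 CPM and monocytes 14.4, 11.1 and 12.9 CPM. Splenic CD8+ DCs had 4.78, 3.91 and 5.27 CPM and splenic CD4+ DCs 1.55, 2.22 and 2.50 CPM (12 to 15 counts a library). Every LN library was above every splenic DC library, and the splenic DC subtypes did not overlap. The LN minus spleen difference was 1.82 (SE 0.28, adjusted p = 3.33e-05) in DC1 and 3.27 (SE 0.31, adjusted p = 2.24e-07) in DC2. Splenic CD8+ DCs exceeded splenic CD4+ DCs by 1.17 (SE 0.32, adjusted p = 0.0100), which missed the threshold in a fit of those 2 subtypes alone (adjusted p = 0.110), while the LN subtypes differed by -0.28 (SE 0.26, adjusted p = 0.563). Monocytes exceeded splenic CD8+ DCs by 1.45 (SE 0.28, adjusted p = 0.000371) and splenic CD4+ DCs by 2.61 (SE 0.31, adjusted p = 1.66e-06). They did not pass against LN CD103+ DCs (-0.37, SE 0.27, adjusted p = 0.252). Their difference from LN CD11b+ DCs (-0.66, SE 0.27, adjusted p = 0.0499) was at the threshold and missed it under 12 of the 21 alternatives, with adjusted p of 0.0506 to 0.183 without any 1 of 10 libraries, namely replicates 1 and 3 of the splenic CD8+ DCs and of the LN CD11b+ DCs and all replicates of the LN CD103+ DCs and of the monocytes.

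Cd14, the lipopolysaccharide carrier and a classical monocyte marker (ENSMUSG00000051439, chromosome 18 from 36725074 to 36726736, minus strand, 1572 exonic bases), had the largest ratio between the highest and lowest subtype means of the 8 genes apart from Tlr5. Monocytes had 794, 799 and 938 CPM (4037 to 8225 counts). LN CD11b+ DCs had 105, 71.0 and 78.5 CPM and splenic CD4+ DCs 36.1, 65.1 and 37.8 CPM, while splenic CD8+ DCs had 21.2, 18.3 and 10.9 CPM and LN CD103+ DCs 14.4, 12.9 and 13.3 CPM. DC2 libraries were thus above DC1 libraries in both organs, and the DC1 subtypes overlapped. Monocytes exceeded LN CD11b+ DCs by 3.31 (SE 0.27, adjusted p = 9.59e-09) and LN CD103+ DCs by 5.96 (SE 0.31, adjusted p = 1.74e-11). The DC1 minus DC2 difference was -1.46 (SE 0.26, adjusted p = 0.000381) in the spleen and -2.65 (SE 0.27, adjusted p = 2.11e-06) in the LN. Like Cd14, the summed monocyte markers were higher in DC2 than in DC1 libraries in both organs and highest in monocytes. Between organs they differed from Cd14. In DC1 their sum was 135 to 196 CPM in the spleen and 18.0 to 36.1 CPM in the LN, whereas Cd14 overlapped. In DC2 their sum overlapped (432 to 614 CPM in the spleen, 471 to 543 CPM in the LN), whereas Cd14 did not. The part of monocytes in the Cd14 levels was not tested.

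Tlr5, the flagellin receptor, was close to undetected in one DC subtype. LN CD103+ DCs had 2 counts in all, both in replicate 1 (0.279 CPM), and 0 in replicates 2 and 3. Splenic CD4+ DCs had 10.4, 12.3 and 20.8 CPM, monocytes 5.11, 4.57 and 9.08 CPM, LN CD11b+ DCs 2.80, 1.76 and 9.28 CPM and splenic CD8+ DCs 5.50, 3.64 and 1.60 CPM. Splenic CD4+ DCs were above every other library, and monocytes, LN CD11b+ DCs and splenic CD8+ DCs overlapped, with no pair of them passing the test. Monocytes minus splenic CD4+ DCs gave -1.21 (SE 0.56, adjusted p = 0.0839), which passed without LN CD11b+ DC replicate 3 (-1.21, adjusted p = 0.0463). That difference also passed with no filter on low counts (-1.20, adjusted p = 0.0227) and with only the subtypes compared in the fit (-1.28, adjusted p = 0.0149). With 2 counts behind the LN CD103+ value, the ratio of the mean of splenic CD8+ DCs to the pooled level in LN CD103+ DCs was 38.9, with a 95% exact Poisson interval of 10.8 to 322 that covers the counting error of the LN CD103+ DCs only. The same ratio was 50.2 for LN CD11b+ DCs (13.9 to 414), 68.0 for monocytes (18.8 to 561) and 158 for splenic CD4+ DCs (43.7 to 1302). Replicate 1 of the LN CD103+ DCs is the library with the highest B cell marker sum. Against the 2 libraries at 0, at a floor of 3 counts over both, splenic CD8+ DCs were at least 17.4-fold higher, LN CD11b+ DCs at least 22.4-fold, monocytes at least 30.4-fold and splenic CD4+ DCs at least 70.5-fold. The edgeR test of LN CD103+ DCs against splenic CD8+ DCs gave adjusted p = 0.000296 and that against LN CD11b+ DCs gave adjusted p = 0.000795. Splenic CD8+ DCs were lower than splenic CD4+ DCs by -2.01 (SE 0.58, adjusted p = 0.0144), a call lost without replicate 3 of the former (adjusted p = 0.0710) or of the latter (0.0579). LN CD11b+ DCs were lower than splenic CD4+ DCs by -1.71 (SE 0.58, adjusted p = 0.0300), a call lost without splenic CD4+ DC replicate 3 (-1.35, adjusted p = 0.116) or LN CD11b+ DC replicate 1 (-1.43, 0.123) or 2 (-1.31, 0.125), and it was -2.64 without LN CD11b+ DC replicate 3.

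Cd180 was lower in the LN than in the spleen in both lineages, and no difference between lineages passed the test. Splenic CD8+ DCs had 31.7, 27.5 and 39.3 CPM, splenic CD4+ DCs 32.7, 22.8 and 29.0 CPM, and monocytes 32.5, 29.0 and 41.7 CPM. LN CD103+ DCs had 4.33, 8.08 and 6.30 CPM and LN CD11b+ DCs 5.59, 7.77 and 7.51 CPM. The 3 spleen subtypes overlapped, the 2 LN subtypes overlapped, and the lowest spleen library was above the highest LN library. LN CD103+ DCs were lower than splenic CD8+ DCs by -2.39 (SE 0.27, adjusted p = 1.05e-06) and LN CD11b+ DCs lower than splenic CD4+ DCs by -2.03 (SE 0.27, adjusted p = 1.37e-05). The difference between these was -0.36 (SE 0.38, adjusted p = 0.611). DC1 and DC2 did not pass in the spleen (0.22, SE 0.25, adjusted p = 0.560) or the LN (-0.14, SE 0.28, adjusted p = 0.821), nor did monocytes against splenic CD8+ DCs (0.07, SE 0.25, adjusted p = 0.867) or splenic CD4+ DCs (0.28, SE 0.25, adjusted p = 0.372). B cells are known for CD180 at their surface. In LN CD103+ DC replicates 1 to 3 the B cell marker sum was 263, 18.6 and 23.7 CPM, where Cd180 had 4.33, 8.08 and 6.30 CPM. That sum was 48.5 to 95.3 CPM in LN CD11b+ DCs and 87.5 to 104 CPM in splenic CD4+ DCs. It was 31.0 to 45.5 CPM in splenic CD8+ DCs and 24.3 to 29.3 CPM in monocytes. The part of B cells in the Cd180 levels was not tested. Ly86, which encodes the partner MD-1, had 396 to 455 CPM in monocytes, 257 to 511 in splenic CD4+ DCs, 153 to 171 in splenic CD8+ DCs, 132 to 277 in LN CD11b+ DCs and 79.8 to 90.8 in LN CD103+ DCs. It too was lower in the LN, by -0.93 (SE 0.26, adjusted p = 0.00649) in DC1 and -1.03 (SE 0.26, adjusted p = 0.00444) in DC2, and unlike Cd180 it was lower in DC1 than in DC2 in the spleen (-1.24, SE 0.26, adjusted p = 0.00150) and the LN (-1.14, SE 0.26, adjusted p = 0.00574).

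The comparisons of the design ask how these genes differ by lineage, by organ and between DCs and monocytes. In the spleen, CD8+ DCs differed from CD4+ DCs in 4 of the 8 genes, where 27.4% of all genes tested passed, 13.1% as higher and 14.4% as lower. Tlr1, Tlr5 and Cd14 were lower in the CD8+ DCs and Ly96 was higher, and the median log2 fold change of the 8 was -0.37 against 0.00 for all genes tested. In the LN, CD103+ DCs differed from CD11b+ DCs in 3 of the 8 (12.9% of all genes, 5.22% as higher and 7.73% as lower): Tlr1, Tlr5 and Cd14 again, all lower in DC1, with a median of -1.05 against -0.01 for all genes. Blocking on the replicate number raised that count to 5, with Tlr2 and Tlr4. The other 5 genes had log2 fold changes of -1.78 to -0.14 there, all below 0.

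Between organs, LN CD103+ DCs differed from splenic CD8+ DCs in 5 of the 8 genes, near the share of all genes that passed (45.6%, of which 23.8% were higher and 21.8% lower). Tlr1 and Ly96 were higher in the LN, and Tlr4, Tlr5 and Cd180 were lower, with a median of -0.36 against 0.00 for all genes. LN CD11b+ DCs also differed from splenic CD4+ DCs in 5 of the 8 (33.1% of all genes, 19.3% as higher and 13.8% as lower), with Cd14 and Ly96 higher and Tlr1, Tlr5 and Cd180 lower, and a median of -0.23 against 0.05. Without LN CD11b+ DC replicate 1 the count fell to 3. Ly96 was thus higher and Cd180 and Tlr5 lower in the LN in both lineages, whereas Tlr1 went in opposite directions.

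**Figure D2:**
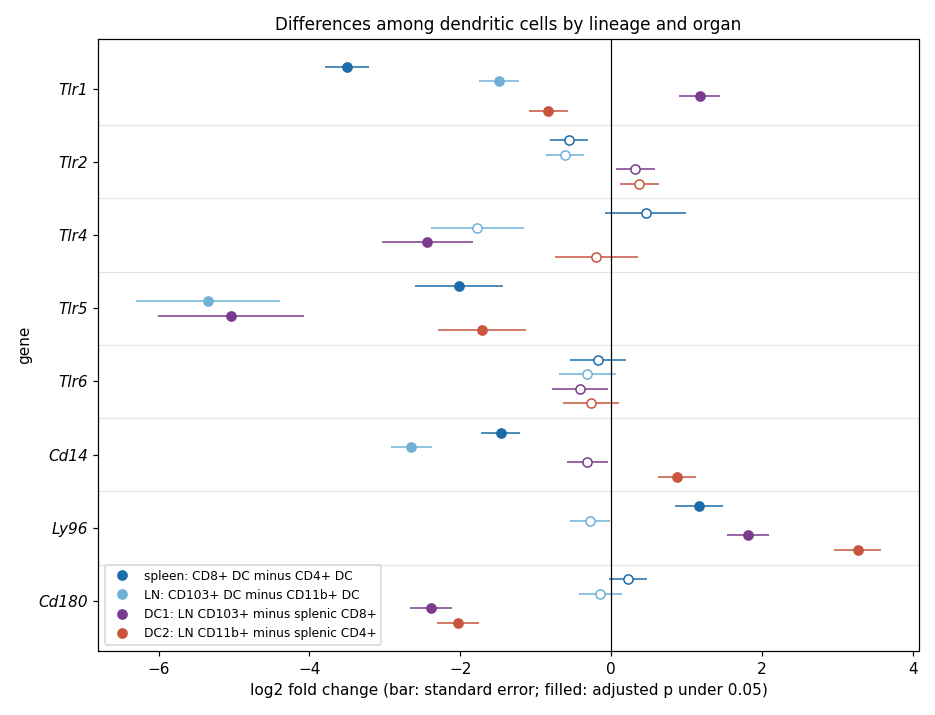
Log2 fold change (horizontal axis) of each gene in the 4 comparisons between DC subtypes by lineage and by organ, with bars of 1 standard error and filled dots where the adjusted p is under 0.05. Tlr1 lies to the right of 0 for DC1 and to the left for DC2 when LN is compared with spleen, Cd180 is at -2.39 and -2.03 in those comparisons, and the Tlr5 values that involve LN CD103+ DCs rest on 2 counts.

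The difference between the lineages in the LN minus spleen change was tested as an interaction, which 11.2% of all genes (5.17% above 0 and 6.03% below) and 3 of the 8 passed. Tlr1 was higher in the LN in DC1 (1.18, SE 0.27, adjusted p = 0.00162) and lower in DC2 (-0.83, SE 0.26, adjusted p = 0.0181), and these changes differed by 2.01 (SE 0.38, adjusted p = 0.00167). The DC2 change missed the threshold without splenic CD4+ DC replicate 2 (-0.70, adjusted p = 0.0676) or LN CD11b+ DC replicate 3 (-0.70, 0.0739), while the interaction passed under all 21 alternatives, with adjusted p of 5.26e-07 to 0.00758. Cd14 changed by -0.31 (SE 0.27, adjusted p = 0.361) in DC1 and 0.87 (SE 0.25, adjusted p = 0.0115) in DC2, a difference of -1.19 (SE 0.37, adjusted p = 0.0427). The DC2 change of Cd14 missed the threshold without splenic CD4+ DC replicate 1 (0.72, adjusted p = 0.0579) or LN CD11b+ DC replicate 1 (0.69, 0.0686). Ly96 changed by 1.82 in DC1 and 3.27 in DC2, a difference of -1.45 (SE 0.41, adjusted p = 0.0279). The interactions of Cd14 and Ly96 were lost under 13 and 8 of the 21 alternatives, and only Tlr1 remained of the 3 with just the 4 DC subtypes in the fit, and without splenic CD4+ DC replicate 1, LN CD103+ DC replicate 1 or 2, or LN CD11b+ DC replicate 1. For Tlr4 the interaction missed the threshold (-2.24, SE 0.82, adjusted p = 0.0881). It was -3.47 without LN CD103+ DC replicate 1 (adjusted p = 0.0119), -1.55 without LN CD11b+ DC replicate 1 (adjusted p = 0.301) and -2.24 with no filter on low counts (adjusted p = 0.00203). For Tlr5, whose value rests on the 2 counts in LN CD103+ DCs, the adjusted p was 0.0839 and ran from 0.00736 to 0.942 over the 21 alternatives.

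Monocytes differed from splenic CD8+ DCs in 6 of the 8 genes, all higher (42.1% of all genes tested passed, 20.4% as higher and 21.7% as lower), with a median log2 fold change of 1.67 against -0.04 for all genes. They differed from splenic CD4+ DCs in 6 (48.0% of all genes, 23.8% as higher and 24.2% as lower), of which 5 were higher and Tlr1 was lower by -1.78 (SE 0.27, adjusted p = 2.46e-05), with a median of 1.70 against -0.01. Against LN CD103+ DCs 6 genes were higher and none lower (53.2% of all genes, 24.6% as higher and 28.6% as lower), with Tlr1 and Ly96 not passing and a median of 2.43 against -0.05. Against LN CD11b+ DCs 7 genes passed (47.8% of all genes, 21.3% as higher and 26.5% as lower), of which Tlr1 (-0.94, SE 0.26, adjusted p = 0.00593) and Ly96 were lower and Tlr2, Tlr4, Tlr6, Cd14 and Cd180 higher, with a median of 1.64 against -0.07. These comparisons share the monocyte libraries. Tlr2, Tlr4, Tlr6 and Cd14 were higher in monocytes in each. In the remaining pairs, used for the order of levels because lineage and organ both differ, 6 genes separated LN CD103+ DCs from splenic CD4+ DCs (47.0% of all genes), of which 1 was higher (24.8%) and 5 were lower (22.2%), and 5 separated LN CD11b+ DCs from splenic CD8+ DCs (39.9% of all genes), of which 4 were higher (22.5%) and 1 was lower (17.3%). Tlr4 was among those 6 (-1.97, SE 0.62, adjusted p = 0.0132), a call lost without splenic CD4+ DC replicate 1 (-1.73, adjusted p = 0.0510), LN CD103+ DC replicate 2 (-1.62, 0.0665) or replicate 3 (-1.58, 0.0607), and it was -3.20 without LN CD103+ DC replicate 1.

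**Figure D3:**
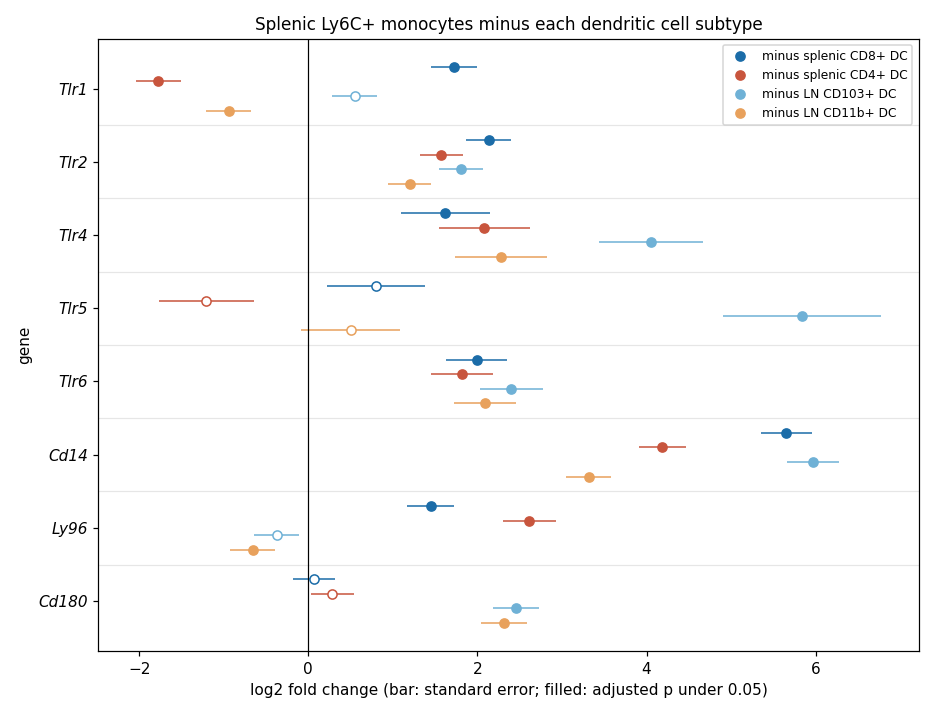
Log2 fold change (horizontal axis) of each gene in splenic Ly6C+ monocytes minus each of the 4 DC subtypes, with bars of 1 standard error and filled dots where the adjusted p is under 0.05. All 4 dots lie to the right of 0 for Tlr2, Tlr4, Tlr6 and Cd14, Cd14 runs from 3.31 to 5.96, and Tlr1 lies on both sides of 0.

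Levels can be set side by side between genes only per exon length, as TPM, the length-scaled unit in which each library has the same total. The 5 receptor genes Tlr1, Tlr2, Tlr4, Tlr5 and Tlr6 summed to 262 ± 36.2 TPM (SD, n = 3) in monocytes, 232 ± 31.8 in splenic CD4+ DCs, 165 ± 15.2 in LN CD11b+ DCs, 75.4 ± 8.73 in LN CD103+ DCs and 62.3 ± 3.23 in splenic CD8+ DCs. The sum was mostly Tlr1 and Tlr2 in each. Tlr2 made up 62.3% ± 1.98 of it in monocytes and Tlr1 18.3% ± 0.453, whereas in splenic CD4+ DCs Tlr1 made up 67.7% ± 3.69 and Tlr2 22.2% ± 3.92 (SD, n = 3 for each). Tlr4 was 0.928% ± 1.04 of the sum in LN CD103+ DCs and 6.15% ± 3.22 in splenic CD8+ DCs, and among the 8 genes Tlr4 or Tlr5 had the lowest mean TPM in every subtype. Cd14 had the highest mean of the 8 in monocytes (1386 ± 133 TPM) and LN CD11b+ DCs (129.8 ± 30.6 TPM), Tlr1 in splenic CD4+ DCs (157 ± 13.9 TPM), Tlr2 in splenic CD8+ DCs (34.6 ± 8.14 TPM) and Ly96 in LN CD103+ DCs (61.9 ± 8.55 TPM).

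Ratios of TPM within a library compare the partners directly. Tlr1 over Tlr6, the alternative partners of TLR2, was 1.34 to 1.70 in the monocyte libraries and 0.869 to 2.87 in splenic CD8+ DCs. It was 4.38 to 6.21 in LN CD103+ DCs, 8.06 to 19.1 in LN CD11b+ DCs and 10.6 to 54.3 in splenic CD4+ DCs, the highest from 21 counts of Tlr6 in replicate 2. Tlr2 exceeded Tlr1 in every library of monocytes (3.29 to 3.61) and of the DC1 subtypes (1.27 to 4.54 in splenic CD8+ DCs, 1.19 to 1.89 in LN CD103+ DCs), Tlr1 exceeded Tlr2 in every splenic CD4+ DC library (0.259 to 0.382), and LN CD11b+ DCs lay on both sides (0.581 to 1.17). Ly96 over Tlr4 was 40.2, 175 and 347 in LN CD103+ DCs, with few Tlr4 counts beneath it, and 19.8, 34.9 and 86.0 in LN CD11b+ DCs. It was 3.53 to 6.70 in splenic CD8+ DCs, 1.73 to 7.05 in splenic CD4+ DCs and 3.31 to 6.79 in monocytes, so that no LN library overlapped a spleen library. Cd14 over Tlr4 was 91.7 to 144 in monocytes and 2.80 to 11.4 in splenic CD8+ DCs, with 15.5 to 79.4 in splenic CD4+ DCs, 14.6 to 94.2 in LN CD103+ DCs and 39.6 to 105 in LN CD11b+ DCs. Ly86 exceeded Cd180 in every library, by 19.7 to 25.2 in splenic CD8+ DCs, 35.6 to 79.7 in splenic CD4+ DCs, 46.9 to 83.4 in LN CD103+ DCs, 76.7 to 167 in LN CD11b+ DCs and 43.0 to 71.0 in monocytes. Transcript ratios are not ratios of proteins at the surface.

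**Figure D4:**
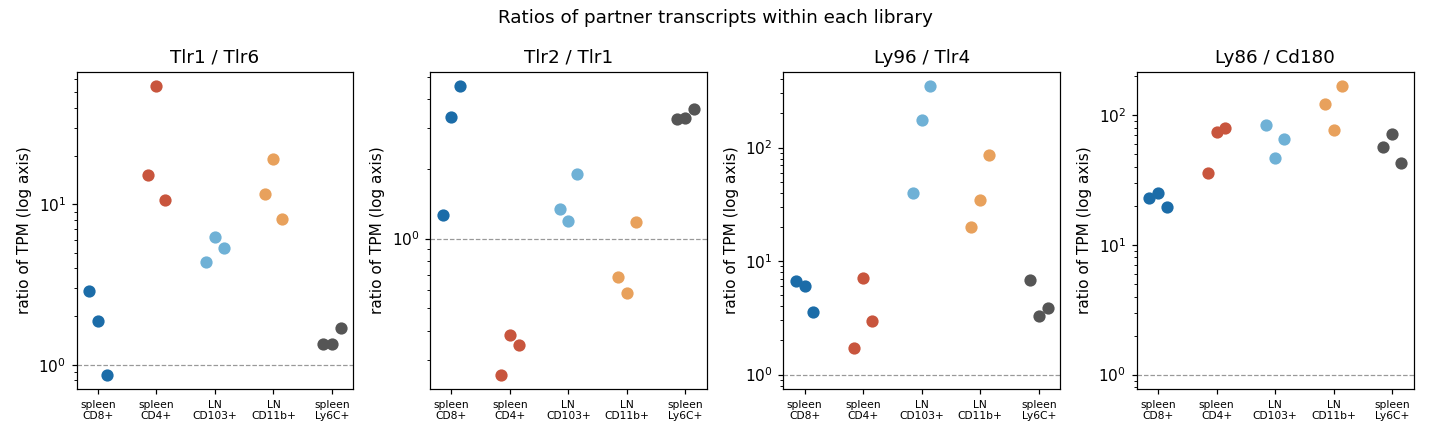
Ratio of the TPM of partner genes within each library, on log axes that differ between panels, with a dot for each of the 3 libraries of a subtype and a dashed line at equal levels. Tlr1 over Tlr6 is at least 8.06 in every DC2 library and at most 6.21 in every other library, and Ly96 over Tlr4 is at least 19.8 in every LN library and at most 7.05 in every spleen library.

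The genes around the receptors were taken as lists. Of 19 adaptors and kinases, 7 were higher and 3 lower in LN CD103+ than in splenic CD8+ DCs, with a median log2 fold change of 0.18 (23.8% of all genes were higher and 21.8% lower). In LN CD11b+ against splenic CD4+ DCs 4 were higher and 3 lower, with a median of -0.22 (19.3% and 13.8% of all genes). Myd88, the adaptor shared by all 5 receptors, had 59.1 to 74.4 CPM in LN CD103+ DCs and 77.6 to 122 CPM in LN CD11b+ DCs against 130.2 to 213 CPM and 194 to 355 CPM in their splenic counterparts. It was lower in the LN by -1.37 (SE 0.24) in both lineages, with adjusted p = 0.000150 in DC1 and 0.000229 in DC2. Pik3ap1, which links receptors to PI3-kinase, was also lower in both (-2.42 and -2.12). The ubiquitin ligase Traf6, which acts after the IRAK kinases, was higher in the LN, by 2.16 (SE 0.23, adjusted p = 5.24e-07) in DC1 and 1.54 (SE 0.23, adjusted p = 3.97e-05) in DC2. Traf3 (2.31 and 0.80), Ikbke (3.95 and 3.86) and Ticam1, which encodes the adaptor TRIF (0.77 and 0.73), were higher in both as well.

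Ticam2 encodes TRAM, the adaptor that joins TRIF to TLR4, and it showed the pattern of Tlr1 in direction. It had 89.8 to 159 CPM in splenic CD4+ DCs and 7.90 to 13.5 CPM in splenic CD8+ DCs, and in the LN 29.6 to 40.8 CPM in CD11b+ DCs and 17.2 to 24.9 CPM in CD103+ DCs. It was higher in the LN in DC1 (0.86, SE 0.26, adjusted p = 0.0118) and lower in DC2 (-1.70, SE 0.25, adjusted p = 3.99e-05), and the interaction was 2.56 (SE 0.37, adjusted p = 0.000144). Tirap, the bridging adaptor of TLR2 and TLR4, was 26.2 to 31.1 CPM in splenic CD8+ DCs and 10.7 to 14.3 CPM in every other DC library, and its interaction was -1.23 (SE 0.30, adjusted p = 0.0108). In the spleen, 1 of the 19 adaptors and kinases was higher (Tirap) and 5 were lower in CD8+ than in CD4+ DCs (13.1% and 14.4% of all genes), and in the LN 1 was higher and 2 were lower in CD103+ than in CD11b+ DCs (5.22% and 7.73% of all genes). That LN count of 3 was 5 with the replicate number as a block and ranged from 0 to 4 when 1 library was left out, reaching 0 without LN CD11b+ DC replicate 3 and 1 without replicate 2 of those cells or any 1 replicate of the LN CD103+ DCs or monocytes. Against monocytes, 7 of the 19 differed for splenic CD8+ DCs (42.1% of all genes), 5 for splenic CD4+ DCs (48.0%), 12 for LN CD103+ DCs (53.2%) and 13 for LN CD11b+ DCs (47.8%).

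Negative regulators and partner proteins completed the pathway. Of 6 genes listed as negative regulators 5 were tested, and the list name does not state what each gene does in these cells. All 5 were higher in LN CD103+ than in splenic CD8+ DCs (median 0.88). Irak3, Tollip and Sigirr were also higher in LN CD11b+ than in splenic CD4+ DCs (median of the 5, 0.56). Of all genes, 23.8% were higher and 21.8% lower in the LN in DC1, and 19.3% and 13.8% in DC2, and the partner counts have the same background. Irak3, which encodes the kinase-inactive IRAK-M, had 1.15 to 1.48 CPM in splenic CD8+ DCs, 3.50 to 8.86 in splenic CD4+ DCs, 6.56 to 10.7 in LN CD103+ DCs, 22.9 to 30.3 in LN CD11b+ DCs and 72.6 to 93.5 in monocytes, and its LN minus spleen change was 2.65 (SE 0.34, adjusted p = 4.36e-06) in DC1 and 2.16 (SE 0.29, adjusted p = 1.41e-05) in DC2. Peli1 rose in the LN in DC1 (1.77, SE 0.19, adjusted p = 3.60e-07) and had 0.40 in DC2, and its interaction was 1.37 (SE 0.26, adjusted p = 0.00179). Il1rl1 did not pass the filter. Of 8 chaperones and partner proteins, 5 were lower and none higher in LN CD103+ than in splenic CD8+ DCs, and in DC2 2 were lower and 1 was higher, with medians of -1.18 and -0.22 over the 7 genes other than Lbp. Hsp90b1, the chaperone gp96 on which surface receptors depend, had 409.6 to 562 CPM in splenic CD8+ DCs and 93.8 to 167 CPM in the other DC libraries. Cd36, a co-receptor of TLR2 with TLR6, had 340.1 to 539.7 CPM in splenic CD8+ DCs, 121 to 145 in LN CD103+ DCs, 29.3 to 38.5 in LN CD11b+ DCs and 7.22 to 22.2 in splenic CD4+ DCs. Lbp, whose product delivers lipopolysaccharide to CD14, had 0 counts in all 6 splenic DC libraries, 2 in each LN subtype and 1.77 to 9.43 CPM in monocytes.

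**Figure D5:**
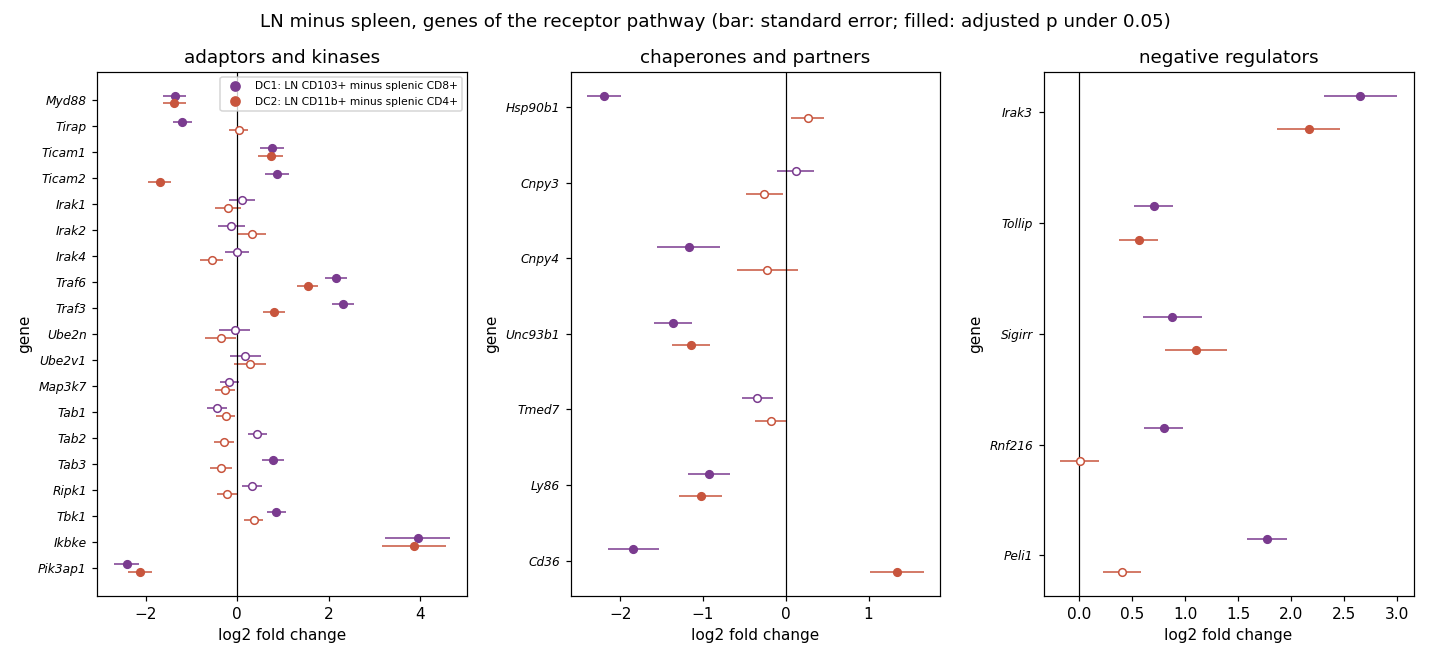
LN minus spleen log2 fold change (horizontal axis) of the adaptors and kinases, the chaperones and partners without Lbp, and the tested negative regulators, in DC1 and in DC2, with bars of 1 standard error and filled dots where the adjusted p is under 0.05. Myd88, Pik3ap1, Unc93b1 and Ly86 lie to the left in both lineages, Traf6, Traf3, Ikbke, Ticam1, Irak3, Tollip and Sigirr to the right in both, and Ticam2 and Cd36 on opposite sides.

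Likeness of pattern was measured as the root mean square difference of centred log2 CPM over the 15 libraries. Among the 8 genes, Tlr2 and Tlr6 were closest (0.68), followed by Tlr4 and Tlr6 (0.94), and Tlr1 and Tlr6, the neighbours on chromosome 5, stood at 1.61. Tlr5 and Ly96 were farthest apart (2.72). The median over all genes tested was 1.07 from Tlr2 and 1.18 from Tlr6. Of the tested genes with a mean of at least 10 CPM, the nearest to Tlr1 were Ctsd (0.51), the protease cathepsin D, and Fam107b (0.53). The nearest to Tlr2 were Lamp2 (0.23), a lysosomal membrane protein, and Kremen1 (0.25), and to Tlr6 Degs1 (0.27), a desaturase of ceramide synthesis, and the kinase Mapkapk2 (0.28). Tlr4 was nearest to Dck (0.47) and Lamtor4 (0.54), Tlr5 to Sla (0.75) and Cfp (0.77), which encodes properdin, and Cd14 to the scavenger receptor Lrp1 (0.46) and Wfdc17 (0.57). Ly96 was nearest to the linker histone gene H1f0 (0.36) and Cd44 (0.42), and Cd180 to Exoc6 (0.33), of the exocyst, and Slc12a9 (0.37). These are descriptions over libraries that share subtypes.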

How the data were processed

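RNA of 15 libraries was analysed as deposited. The authors mapped Ion Torrent reads of at least 30 nt to mm10 with STAR 2.4.0j, and featureCounts (Subread 1.5.2) took those mapped uniquely to Ensembl 75 genes (versions from the submitters' processing notes and the methods), unstranded, a read over several genes counting for each. The deposited counts per library are not normalized and sum both runs of each monocyte library. For TPM, the authors divided counts by exon length and scaled each library to one total. Exon lengths and positions are those of the deposited annotation. Depth was 4531243 to 10233914 counts, and intervals and floors cover counting error only.

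Counts were tested with edgeR 4.0.16 in R 4.3.3: genes above 1 CPM in at least 3 libraries (14456), TMM factors of 0.883 to 1.10, a mean per subtype and the quasi-likelihood F test with Benjamini-Hochberg adjustment. SE is the log2 fold change divided by the root of F. The fit was also run on simulated data with genes of known fold change, and its rate of recovery is not given here. The changed genes lay well above the low-count filter, so low-count genes such as Tlr5 were not covered. All genes had one fixed spread, below the common dispersion fitted to the real counts (0.0681). Deviations of same-numbered libraries from their subtype means were correlated over 0.1 at every number in 4 of the 10 pairs of subtypes. These were splenic CD8+ with CD4+, LN CD103+ with CD11b+ and splenic CD4+ with each LN subtype (range 0.12 to 0.38). The other 6 pairs ranged from -0.04 to 0.18, so the ranges overlap. LN and spleen libraries came from different mice. Whether the numbers pair samples is thus not known for any pair of subtypes. The main tests are unpaired throughout, and the numbers enter only as a block among the alternatives. Any hint of pairing comes from the data, since the labels give no shared litter or day. Alternatives used RLE factors, DESeq2 1.42.0, no filter, limma 3.58.1 on log2(TPM + 1), only the subtypes compared, the replicate number as a block and each library left out. GENCODE vM21 gave symbols and transcripts.

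The 8 genes, the lists (adaptors and kinases, chaperones and partners, negative regulators, endosomal receptors, cell type markers) and the rule for named genes were chosen with earlier results of these data known. By that rule the text names the 8 genes, genes of these lists, and for each of the 8 genes the 2 tested genes of at least 10 CPM with the smallest root mean square difference. Read assignment totals and counts by run were not used.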

Additional observations from a re-analysis of the deposited data

Results flagged for a closer look

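For 3 genes the LN minus spleen change differed between DC1 (LN CD103+ minus splenic CD8+ DCs) and DC2 (LN CD11b+ minus splenic CD4+ DCs) by edgeR's test of the difference itself. It was 2.01 for Tlr1, -1.19 for Cd14 and -1.45 for Ly96 on the log2 scale, with adjusted p of 0.00167, 0.0427 and 0.0279. Over the 21 alternatives the adjusted p was 5.26e-07 to 0.00758 for Tlr1, 0.00727 to 0.121 for Cd14 and 0.0145 to 0.0724 for Ly96. Cd14 missed the threshold without any 1 of 11 libraries, which were replicates 1 and 2 of the splenic CD8+ DCs, 1 and 3 of the splenic CD4+ DCs, 1 of the LN CD11b+ DCs, and all of the LN CD103+ DCs and of the monocytes, with log2 differences of -1.23 to -0.98 there. Ly96 missed it without any 1 of 6 libraries, which were replicate 3 of the splenic CD8+ DCs, 1 of the splenic CD4+ DCs, 1 and 2 of the LN CD103+ DCs and 1 and 3 of the LN CD11b+ DCs, with differences of -1.45 to -1.26.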

How the results depend on the processing

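No gene with a call changed direction under any of the 21 alternatives. Over the 8 genes and 11 contrasts, the 6 alternatives other than leaving out 1 library gave 528 values. Of these 510 kept their direction and side of the threshold, 7 lost a call and 11 gained one. Leaving out 1 library gave 1320 values, of which 1248 were kept, 43 lost a call, 10 gained one and 19 changed sign without a call in either fit. For the gene and contrast pairs with such a sign change, the values without 1 library ran from -0.022 to 0.71 for Tlr4 and from -0.55 to 0.33 for Tlr6 in splenic CD8+ minus CD4+ DCs, from -0.38 to 0.068 for Cd180 in LN CD103+ minus CD11b+ DCs, from -0.88 to 0.10 for Tlr4 and from -0.65 to 0.23 for Tlr6 in LN CD11b+ minus splenic CD4+ DCs, from -0.095 to 0.21 for Cd180 in monocytes minus splenic CD8+ DCs, from -0.46 to 0.030 for Tlr2 in LN CD103+ minus splenic CD4+ DCs, from -0.63 to 0.76 for Tlr5 and from -0.23 to 0.11 for Tlr6 in LN CD11b+ minus splenic CD8+ DCs, and from -0.32 to 0.17 for Tlr2 and from -0.64 to 0.24 for Tlr6 in the interaction.

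The number of the 8 genes called moved by over 1.5 times in these cases. For LN CD103+ minus CD11b+ DCs it was 3, 3 to 4 without 1 library, and 5 with the replicate block, which added Tlr2 (adjusted p = 0.0471) and Tlr4 (0.0439). For LN CD11b+ minus splenic CD4+ DCs it was 5, and 3 to 5 without 1 library. For the interaction it was 3, 1 with only the 4 DC subtypes in the fit, and 1 to 4 without 1 library. The causes were not tested. The block changed no other call of the 8 genes. In the 6 other contrasts of 2 subtypes the numbers do not pair the samples, although 13 of 15 libraries correlated best with their own number, a hint from the data and not from the design, and there the block moved the adaptors and kinases called in monocytes from 7 to 11 against splenic CD8+ DCs and from 5 to 8 against splenic CD4+ DCs. Depth limits Tlr5 and Tlr4 in LN CD103+ DCs (2 and 35 counts over 3 libraries) and Ly96 in splenic CD4+ DCs (40 counts).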

Other observations

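The receptors that act in endosomes were counted for comparison. Of the 7 tested (Tlr3, Tlr7, Tlr8, Tlr9, Tlr11, Tlr12 and Tlr13), 3 were higher and 2 lower in splenic CD8+ than in splenic CD4+ DCs (13.1% and 14.4% of all genes tested), and 5 were lower and none higher in LN CD103+ than in splenic CD8+ DCs (21.8% and 23.8%). LN CD11b+ DCs had 2 higher and 1 lower than splenic CD4+ DCs (19.3% and 13.8%), and LN CD103+ DCs 2 lower than LN CD11b+ DCs (7.73%). Monocytes had 3 higher (Tlr7, Tlr8 and Tlr13) than each DC subtype and 3, 3, 3 and 2 lower than splenic CD8+, splenic CD4+, LN CD103+ and LN CD11b+ DCs, where 20.4%, 23.8%, 24.6% and 21.3% of all genes were higher and 21.7%, 24.2%, 28.6% and 26.5% lower.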
